A study of Mus musculus with 23 samples.

Results

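Gene expression in 3-week virgin mice was set against that in 9-week virgin mice in 2 purified cell types of the mammary gland, stem cells and luminal progenitors. The comparison used 8 of the 23 arrays of the study. They were chosen by their labels as the stem cell and luminal progenitor arrays of 3-week virgins (4 arrays) and the arrays of the same cell types in 9-week virgins (4 arrays), and the 9-week array of the same cell type and replicate number was subtracted from each 3-week array. Mature luminal cells were left out of the age comparison because the only 3-week array of that type had a Gapdh signal 5.16 log2 units stronger from the 3′ than from the 5′ end of the transcript, against 1.30 and 1.53 on the 9-week arrays, and a large excess is usually read as degraded RNA. All mice were female C57BL/6, an inbred strain without a transgene or treatment. The 4 groups were 3-week virgin stem cells, 9-week virgin stem cells, 3-week virgin luminal progenitors and 9-week virgin luminal progenitors, with 2 arrays each. The p-values rest on a fit of 14 arrays, the 8 compared and 6 others. The others are mature luminal cells of 9-week virgins, and mature luminal and stem cells of pregnant mice. They served only to estimate the spread and the effect of the replicate number. The labels name neither the sorting markers nor whether the arrays of a group came from separate animals or pools. The p-values therefore cover the variation among those 14 arrays alone, part or all of which may be technical.

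At 3 weeks the mouse mammary gland is a small rudimentary duct tree in a fat pad, before the ovarian cycle begins. During puberty, oestrogen acting through its receptor, growth hormone acting through insulin-like growth factor, and signals between the layers drive the ducts to the edges of the pad, and by 9 weeks the tree is largely in place. The basal layer, in which mammary stem cell activity was first found, carries keratins 5 and 14, the p63 transcription factor and smooth muscle proteins. Luminal progenitors lie in the inner layer and are usually known by the receptor Kit, the enzyme Aldh1a3 and the transcription factor Elf5.

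Values are the deposited log2 expression values, and differences are 3-week minus 9-week in log2 units, so that 1 unit is a doubling. A gene passed at a limma adjusted p under 0.05 over all 15378 genes tested. Array medians lay between 4.67 and 5.34, and the Gapdh excess of the 8 arrays between 0.87 and 2.11. A value below the array median may be mostly background, and a difference that starts from one is no exact fold.

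The labels were first checked against marker genes. Basal markers were higher on both stem cell arrays than on both luminal progenitor arrays for 9 of 10 genes at 3 weeks and for 10 of 10 at 9 weeks. Luminal progenitor markers were higher on both luminal progenitor arrays for 5 of 9 genes at 3 weeks and for 7 of 9 at 9 weeks. Kit went against the label at 3 weeks, with 7.92 and 7.91 in luminal progenitors and 10.05 and 9.17 in stem cells. Endothelial markers stood higher in the stem cell preparation than in luminal progenitors for 7 of 7 genes at both ages, which is not a pattern of basal epithelium. The log2 values of these 7 endothelial genes summed to between 77.33 and 79.51 on the 3-week stem cell arrays, against 67.26 to 67.44 on the 9-week ones, and to between 48.25 and 49.64 in 3-week luminal progenitors, against 37.42 to 45.42 in 9-week ones. None of them was at 0 on any array. Of the 4 macrophage markers, Adgre1 and C1qa lay below the array median on 8 and 7 of the 8 arrays, Csf1r on 2 and Cd68 on 0. Their log2 values summed to between 18.19 and 21.46 on the 3-week stem cell arrays, against 18.90 to 23.16 on the 9-week ones. A longer list of macrophage genes is given with Pf4 below. In bulk samples like these, fewer cells of a type and less RNA per cell cannot be told apart.

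Averaged over both cell types, 17 genes passed the test, 0.111% of those tested, and 16 of them were higher at 3 weeks. They include Stab2, a scavenger receptor of sinusoidal and lymphatic endothelium, F8, coagulation factor VIII, which is made mainly by endothelial cells, Pf4, a chemokine of platelets and megakaryocytes, and Chst4, the sulphotransferase that finishes the L-selectin ligands of high endothelial venules. Dusp14, a phosphatase that acts on MAP kinases, was the single gene that was lower (0.00650% of genes). All 17 moved in the same direction in all 4 array pairs, where 12.0% of all genes were higher and 7.38% lower in all 4. Their ages did not overlap over both cell types for 6 of the 17, Astn1, Dcpp3, Dusp14, F8, Stab2 and Susd2 (0.767% of all genes stood wholly higher and 0.715% wholly lower). The 17 were chosen by these same values, so such counts describe them and add no support. The test of the luminal progenitors alone called 0 genes in limma (559 at an unadjusted p under 0.05). That of the stem cells alone called 32, all higher at 3 weeks. The change was larger in stem cells than in luminal progenitors for all 16 genes that rose on the mean. The share of all genes for which this was so was not counted, and 14 of the 16 also passed in stem cells alone. That count therefore describes the 16 and adds no support. The numbers of genes that passed rest on the replicate number as a term and on single arrays. Without the replicate term limma called 0 genes on the mean and 0 in stem cells (682 and 831 at an unadjusted p under 0.05), and without replicate 1 of the 3-week stem cells it called 0 and 0 (1421 and 1655), while without replicate 2 it called 4 on the mean and 0 in stem cells (861 at an unadjusted p under 0.05).

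**Figure D1:**
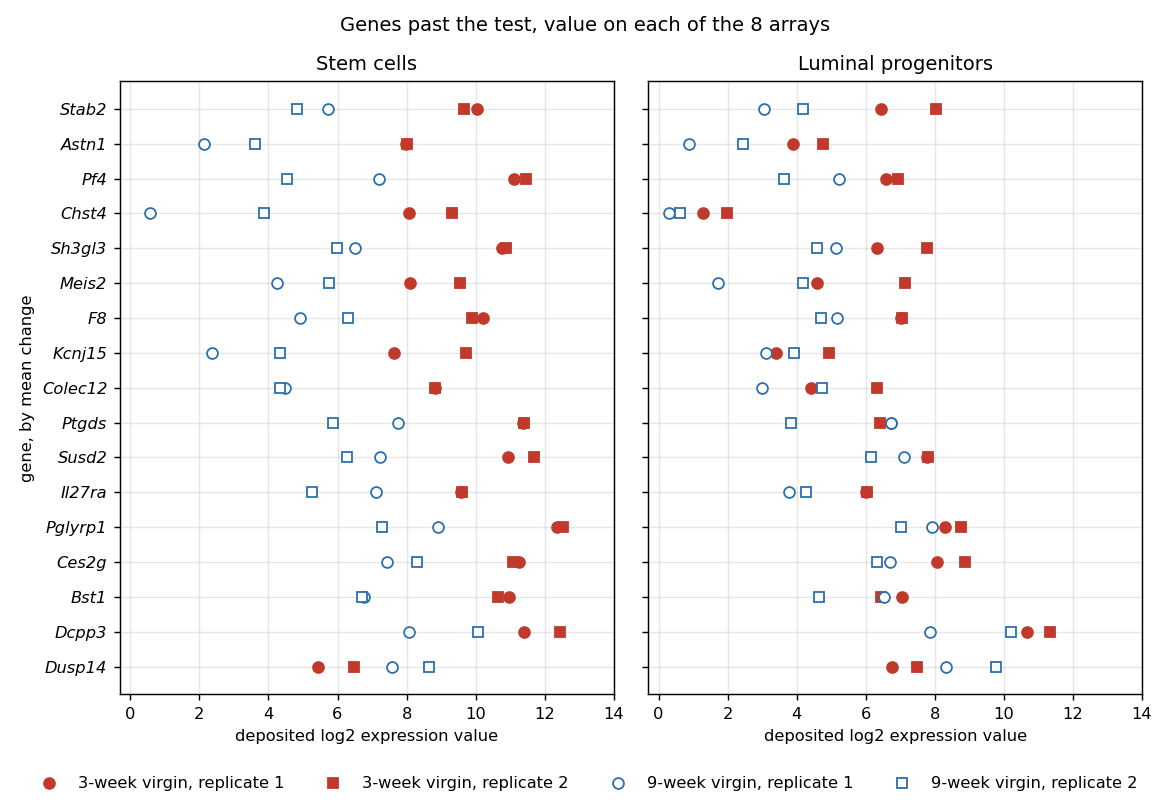
Deposited log2 value (x axis) of each of the 17 genes that passed the test (y axis) on the 8 arrays, with stem cells left and luminal progenitors right. Filled red symbols are 3-week and open blue symbols 9-week virgins, with circles for replicate 1 and squares for replicate 2. In stem cells the 2 ages do not overlap for any of the 17 genes; in luminal progenitors they do for Kcnj15, Colec12, Ptgds and Bst1.

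RefSeq promoters (GRCm38.p6, 300 bases spanning the annotated start) were on hand for 13 of the 17 genes. Those of the vascular genes Stab2, F8 and Chst4, of the platelet gene Pf4 and of Dusp14, the 1 gene that fell, are shown here, 5′ to 3′ on the strand of the gene, because the first 4 moved together. Stab2 lies at chr10:87007893-87008192 on the minus strand, F8 at chrX:75379992-75380291 on the minus strand, Pf4 at chr5:90772185-90772484 on the plus strand, Chst4 at chr8:110039285-110039584 on the minus strand and Dusp14 at chr11:84068308-84068607 on the minus strand. Capitals mark 2 motifs searched on both strands, AGATAA, the core bound by GATA factors, and CAGGAA, a core bound by ETS factors.
Stab2: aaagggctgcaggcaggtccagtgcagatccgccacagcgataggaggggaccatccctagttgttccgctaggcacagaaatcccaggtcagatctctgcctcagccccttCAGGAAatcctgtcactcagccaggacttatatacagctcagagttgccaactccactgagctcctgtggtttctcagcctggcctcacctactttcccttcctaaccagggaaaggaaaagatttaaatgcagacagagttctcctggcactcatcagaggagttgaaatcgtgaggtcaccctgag
F8: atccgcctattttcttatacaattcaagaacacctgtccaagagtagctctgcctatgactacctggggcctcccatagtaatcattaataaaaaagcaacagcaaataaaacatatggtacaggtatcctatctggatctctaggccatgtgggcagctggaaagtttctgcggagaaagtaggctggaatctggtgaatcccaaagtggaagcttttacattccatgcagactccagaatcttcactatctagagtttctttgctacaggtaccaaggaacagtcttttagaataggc
Pf4: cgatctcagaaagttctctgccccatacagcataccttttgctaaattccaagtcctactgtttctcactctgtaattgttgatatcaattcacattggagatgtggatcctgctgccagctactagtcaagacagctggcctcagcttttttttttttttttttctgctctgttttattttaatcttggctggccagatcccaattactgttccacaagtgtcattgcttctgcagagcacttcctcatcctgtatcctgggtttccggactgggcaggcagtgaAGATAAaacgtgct
Chst4: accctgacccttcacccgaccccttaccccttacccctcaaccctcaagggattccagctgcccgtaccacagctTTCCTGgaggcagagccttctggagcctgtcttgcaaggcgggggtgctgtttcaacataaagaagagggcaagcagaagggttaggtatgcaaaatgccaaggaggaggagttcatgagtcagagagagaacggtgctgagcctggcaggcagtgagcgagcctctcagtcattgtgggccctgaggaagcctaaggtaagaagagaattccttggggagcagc
Dusp14: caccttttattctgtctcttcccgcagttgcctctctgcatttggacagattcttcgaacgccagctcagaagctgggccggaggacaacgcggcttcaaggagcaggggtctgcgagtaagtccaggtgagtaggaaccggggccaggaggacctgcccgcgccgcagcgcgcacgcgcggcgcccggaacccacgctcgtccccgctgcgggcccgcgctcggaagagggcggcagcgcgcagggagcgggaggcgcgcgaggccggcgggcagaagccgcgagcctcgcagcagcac
The GATA core was present in 5 of the 13 promoters (11.2% of all 32851 promoters of this length) and the ETS core in 5 (30.6% of all). The Dusp14 promoter holds 37 CpG dinucleotides, whereas the 12 promoters of genes that rose hold between 2 and 16, with a median of 3.5, and the median over all promoters is 7. A match is a string of letters and was not tested as a binding site.

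Among the lymphatic and sinusoidal endothelial genes, Stab2 was 10.04 and 9.66 on the 3-week stem cell arrays, against 5.71 and 4.83 on the 9-week ones, and 6.43 and 8.02 in 3-week luminal progenitors, against 3.05 and 4.19 in 9-week ones. Every 3-week array stood above every 9-week array. The mean difference was 4.09 ± 0.49 (standard error; limma adjusted p = 0.0079), with 4.58 in stem cells and 3.61 in luminal progenitors. The other 6 stem cell arrays of the study, from 9-week, pregnant and retired breeder mice, ranged from 3.20 to 5.71, below both 3-week arrays.

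F8 showed the same separation, with 10.22 and 9.88 in 3-week stem cells, against 4.91 and 6.30 in 9-week ones, and 7.01 and 7.06 in 3-week luminal progenitors, against 5.16 and 4.71. It was 3.27 ± 0.39 higher at 3 weeks (limma adjusted p = 0.0079). Meis2, a homeobox transcription factor, and Colec12, a scavenger receptor with a collagen-like stalk, rose by 3.37 and 2.96 (limma adjusted p = 0.0421 each). Both lay below the array median on 4 or 5 of the 8 arrays, and neither is among the genes the naming rule selected; they are given because they passed.

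Of the 9 lymphatic and scavenger endothelial genes tested, Stab2 was the 1 that passed (0.104% of all genes passed as higher). In all 4 pairs 7 were higher and 0 lower (12.0% and 7.38% of all genes). The list's median was 2.45, against 0.06 over all genes. Lyve1, the hyaluronan receptor of lymphatic vessels, was 11.89 and 9.57 in 3-week stem cells, against 8.39 and 8.27 in 9-week ones, and 9.95 and 10.20 in 3-week luminal progenitors, against 6.89 and 7.77. Its ages did not overlap within either cell type, and its difference of 2.57 ± 0.51 had a limma adjusted p of 0.0763. Tfpi, the inhibitor of the tissue factor pathway, differed by 2.71 ± 0.49 (limma adjusted p = 0.0586). Prox1, the transcription factor that defines lymphatic identity, differed by 2.08 ± 0.54 (limma adjusted p = 0.164), and its receptor partner in lymphatic growth, Flt4, by 1.63 ± 0.37 (limma adjusted p = 0.114). The values of 6 such genes are in the plot of vascular genes by array.

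All 18 blood vessel endothelial genes had a mean difference above 0 (8630 of all 15378 genes), though 0 of 18 passed in limma. An unadjusted p under 0.05 was reached by 15, all higher (9.26% of all genes reached that in either direction). In all 4 pairs 16 of the 18 were higher (12.0% of all genes), and the median was 1.71 in stem cells and 0.99 in luminal progenitors. Both 3-week arrays exceeded both 9-week ones for 14 of the 18 in stem cells (15.4% of all genes). In luminal progenitors this was so for 9, and the share of all genes was not counted there. Plvap, the diaphragm protein of fenestrated capillaries, was 12.18 and 12.78 in 3-week stem cells, against 10.27 and 10.78 in 9-week ones, and 8.21 and 8.73 in 3-week luminal progenitors, against 7.31 and 6.95. Its difference was 1.65 ± 0.30 (limma adjusted p = 0.0586). Egfl7, a matrix factor secreted by endothelium, differed by 1.94 and the receptor Tie1 by 1.87 (limma adjusted p = 0.0971 and 0.119). Whether the number of vascular cells in the preparations moved these values was not tested.

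**Figure D2:**
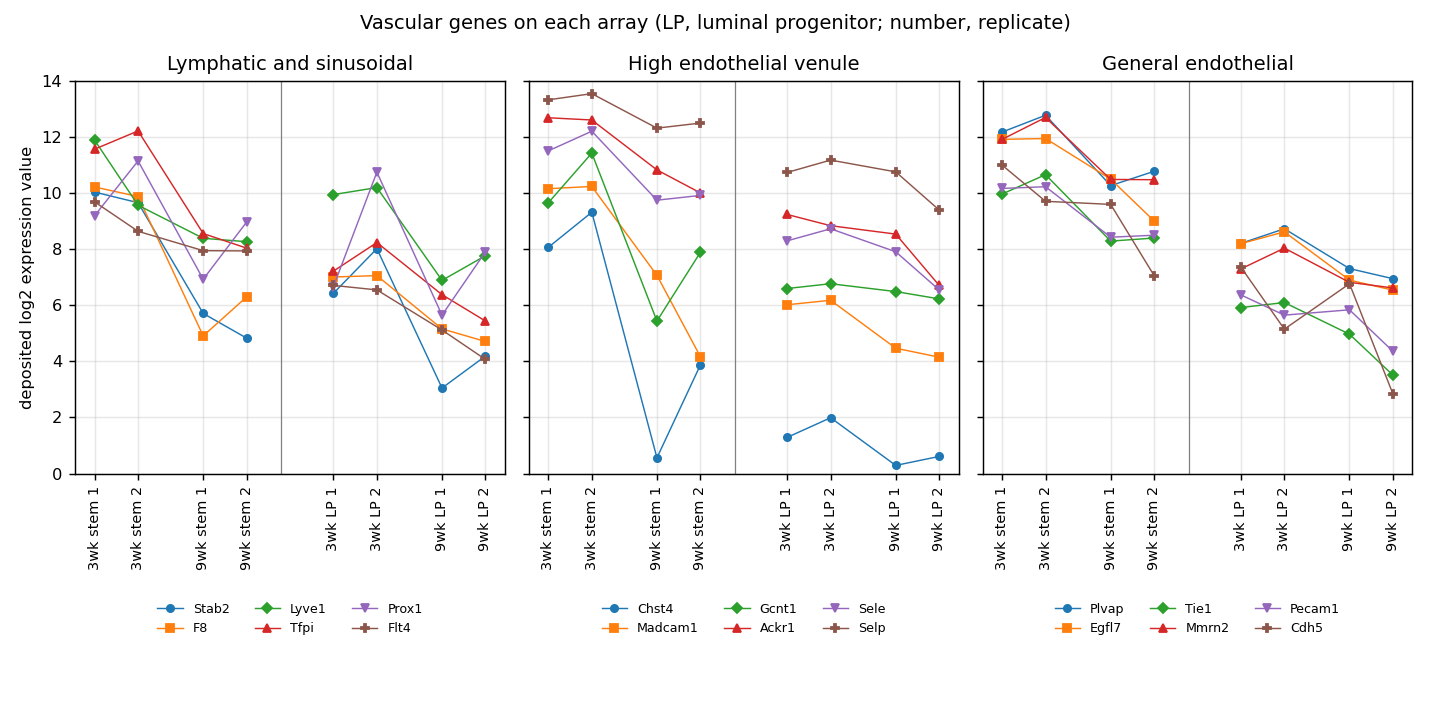
Deposited log2 values (y axis) of 18 vascular genes on the 8 arrays (x axis, 3-week arrays left of 9-week arrays within each cell type), in 3 panels for lymphatic and sinusoidal, high endothelial venule and general endothelial genes. Each symbol is 1 array, and lines only join the arrays of 1 gene within a cell type. The 2 stem cell arrays of 3-week mice lie above the 2 of 9-week mice for all 18 genes plotted, which were picked for the plot. Over the full lists this was so for 14 of 18 blood vessel endothelial genes and 7 of 9 lymphatic and scavenger genes (15.4% of all genes). The high endothelial venule list was drawn up after values had been seen.

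High endothelial venules are the vessels through which lymphocytes leave the blood, and they carry sulphated ligands for L-selectin. A list of 10 of their genes, drawn up after values had been seen, had 1 gene past the test on the mean, and all 10 were higher on both 3-week stem cell arrays than on both 9-week ones (15.4% of all genes). Because the values were known when the list was made, this count describes the list and is no test of it. Chst4 was 8.07 and 9.32 in 3-week stem cells, against 0.56 and 3.87 in 9-week ones, and 1.29 and 1.99 in 3-week luminal progenitors, against 0.29 and 0.61. Only the 3-week stem cell arrays lay above their array medians. The change in stem cells was 6.48 ± 0.84 (limma adjusted p = 0.0140), and because it starts from background values it is no exact fold. Gcnt1, which builds the core of the same sugar ligands, rose by 3.88 in stem cells (limma adjusted p = 0.0292), with 9.66 and 11.43 at 3 weeks, against 5.44 and 7.89 at 9 weeks. Papss2, which makes the activated sulphate donor and is not on that list, rose by 2.78 there (limma adjusted p = 0.0182), with 10.46 and 11.49, against 8.08 and 8.32. In luminal progenitors Gcnt1 and Papss2 differed by 0.33 and 0.23.

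The mucosal addressin Madcam1, which binds lymphocyte integrins, was 10.16 and 10.24 in 3-week stem cells, against 7.07 and 4.17 in 9-week ones. Its mean difference of 3.19 ± 0.63 did not pass (limma adjusted p = 0.0763). Ackr1, a chemokine-binding receptor of venules, differed by 1.82 ± 0.42 (limma adjusted p = 0.114) and the endothelial adhesion molecule Sele by 1.66 ± 0.39 (limma adjusted p = 0.122). The summed endothelial markers given above were higher on the same 3-week stem cell arrays, and their part in these values was not tested.

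Genes of blood cells and platelets came next. Pf4 was 11.10 and 11.45 in 3-week stem cells, against 7.19 and 4.53 in 9-week ones, and 6.59 and 6.94 in 3-week luminal progenitors, against 5.24 and 3.63. It rose by 3.87 ± 0.63 on the mean (limma adjusted p = 0.0421) and by 5.42 in stem cells (limma adjusted p = 0.0278). Another platelet chemokine, Ppbp, lay below the array median on 6 of the 8 arrays. Pf4 is also on a list of macrophage genes, and of the 15 tested it was the 1 that passed on the mean (0.104% of all genes passed as higher). In all 4 pairs 3 of the 15 were higher and 2 lower (12.0% and 7.38% of all genes). The median of that list was 0.395, against 0.06 over all genes. The haemoglobin chain Hbb-b2 had the highest mean difference of all genes tested, 5.82 ± 1.05, and did not pass (limma adjusted p = 0.0586). It was 8.83 and 12.58 in 3-week stem cells, against 6.26 and 3.97 in 9-week ones, and 8.19 and 11.81 in 3-week luminal progenitors, against 4.27 and 3.65. The ages did not overlap, and replicate 2 stood well above replicate 1 at 3 weeks. Alas2, the haem enzyme of red cell precursors, lay below the array median on all 8 arrays.

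A list of 5 secreted proteins known from salivary glands was also drawn up after values had been seen. Its member Lpo is also among the milk protein genes below. On the mean 1 of the 5 passed (0.104% of all genes passed as higher), and 2 were higher in all 4 pairs (12.0% of all genes). Dcpp3, a small protein of the demilune cells of salivary glands, was 11.39 and 12.44 in 3-week stem cells, against 8.08 and 10.06 in 9-week ones, and 10.68 and 11.33 in 3-week luminal progenitors, against 7.87 and 10.20. All 4 arrays of 3-week mice exceeded all 4 of 9-week mice, the closest being 10.68 and 10.20 in luminal progenitors. The rise was 2.41 ± 0.28 (limma adjusted p = 0.0079). Bpifa2, the parotid secretory protein, differed by 2.62 ± 0.46 (limma adjusted p = 0.0564), with 2.62 in stem cells and 2.62 in luminal progenitors. Bpifb5, of the same lipid-binding family, rose by 4.24 in stem cells (limma adjusted p = 0.0140) and stood 0.02 lower in luminal progenitors. The other members lay at background on most arrays: Dcpp1 was below the array median on 8 of the 8 arrays and Lpo, lactoperoxidase, on 7, with limma adjusted p values of 0.742 and 0.310.

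The remaining genes that rose encode enzymes, receptors and channels of varied roles. Ptgds, which makes prostaglandin D2, was 11.38 and 11.40 in 3-week stem cells, against 7.76 and 5.87 in 9-week ones, and rose by 2.94 ± 0.45 on the mean. Pglyrp1, which binds bacterial peptidoglycan, was 12.34 and 12.53 in 3-week stem cells, against 8.91 and 7.28, and rose by 2.70 ± 0.42. Bst1, an ectoenzyme of NAD metabolism found on stromal and immune cells, was 10.97 and 10.64, against 6.78 and 6.70, and rose by 2.62 ± 0.41. In luminal progenitors these 3 genes differed by 1.30, 1.06 and 1.17, and their ages overlapped there for Ptgds and Bst1.

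Susd2, a membrane protein with a sushi domain, rose by 2.86, the carboxylesterase Ces2g by 2.62, the endophilin Sh3gl3 by 3.38 and the cytokine receptor Il27ra by 2.70, with limma adjusted p values between 0.0421 and 0.0472. Astn1, a neuronal adhesion protein, and Kcnj15, a potassium channel, passed from low values and fell outside the naming rule on the mean: each lay below the array median on 6 of the 8 arrays, and they rose by 3.90 and 2.98. For all 16 genes that rose, both 3-week stem cell arrays lay above the other 6 stem cell arrays of the study. This was so for 6.90% of all genes tested, where 15.4% stood above the 9-week stem cell arrays alone. The 9-week arrays are among those 6, and the 16 genes were chosen by the 3-week and 9-week values. The count therefore describes them and adds no support. Another probe set above the filter existed for 4 of the 17 genes, and all 6 of those moved in the same direction.

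In stem cells alone, 32 genes were higher (0.208% of those tested) and 0 lower in limma, where an unadjusted p under 0.05 was reached by 604 lower genes. Of the 32, 18 had not passed on the mean. Tafa2, a secreted chemokine-like protein, was 7.87 and 7.74 at 3 weeks, against 2.25 and 2.34 at 9 weeks, and rose by 5.51 ± 0.89. Samsn1, an adaptor of haematopoietic cells, rose by 4.86, Ndst3, which sulphates heparan chains, by 4.75, and Itih3, which binds hyaluronan, by 4.67 (limma adjusted p between 0.0278 and 0.0458). Further ones, named because they passed, are Ggt5 (4.42), Hdac9 (4.31), Rhof (3.70), Serpinb9 (2.72) and Laptm4b (1.78), with limma adjusted p values between 0.0140 and 0.0342. Laptm4b had the smallest rise of the 32 and was high at both ages, with 12.76 and 12.69, against 11.45 and 10.45. Cd247, the zeta chain of the T cell receptor, passed with 4.21, but its other probe sets gave differences of -1.15, 1.30 and -2.03 in stem cells, so its direction is uncertain.

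**Figure D3:**
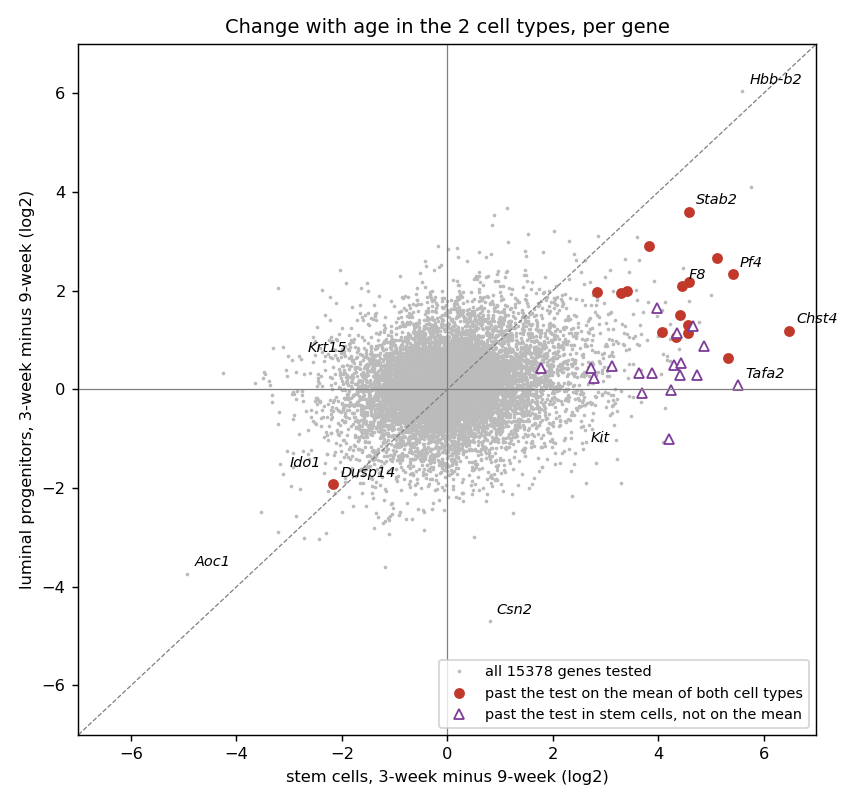
Change between 3-week and 9-week virgins in stem cells (x axis, log2) and in luminal progenitors (y axis, log2) for each of the 15378 genes tested, with red circles for the 17 genes past the test on the mean, open triangles for the 18 further genes past it in stem cells and a dashed line of equal change. The red circles of the 16 genes that rose lie to the right of the line, and Dusp14 lies near it.

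A test of the difference between the cell types, luminal progenitor change minus stem cell change, called 0 genes in limma (744 at an unadjusted p under 0.05; smallest adjusted p = 0.771). The larger rise in stem cells is therefore a direction shared by the 16 genes and not a difference that passed for any of them. Kit, the stem cell factor receptor, was higher in both stem cell pairs and lower in both luminal progenitor pairs (5.37% of all genes). It was 10.05 and 9.17 in 3-week stem cells, against 7.26 and 6.81 in 9-week ones, and 7.92 and 7.91 in 3-week luminal progenitors, against 8.22 and 10.04. Its difference of -3.79 ± 0.83 between the cell types had a limma adjusted p of 0.771. Krt15, a keratin of basal cells, had the opposite sign with 3.40 ± 0.76 (limma adjusted p = 0.771), being 7.47 and 7.17 in 3-week stem cells, against 10.29 and 9.92 in 9-week ones. Both genes separated the ages in stem cells without overlap.

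On the other side of the comparison, Dusp14 was 5.42 and 6.49 in 3-week stem cells, against 7.58 and 8.65 in 9-week ones, and 6.76 and 7.47 in 3-week luminal progenitors, against 8.31 and 9.77. Every 3-week array was below every 9-week one. The fall was 2.04 ± 0.32 log2 units (limma adjusted p = 0.0421), nearly alike in stem cells (-2.16) and luminal progenitors (-1.93). The other 6 stem cell arrays of the study lay between 7.58 and 9.40 and the other 5 luminal progenitor arrays between 8.31 and 9.77, all above the 3-week arrays of their own type.

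Ido1, the enzyme that degrades tryptophan in response to interferon, had 8.41 and 6.09 in 3-week stem cells, against 11.32 and 9.43 in 9-week ones, and 10.38 and 9.03 in 3-week luminal progenitors, against 12.21 and 10.64. Within each cell type the ages did not overlap, and its difference of -2.42 ± 0.46 missed the threshold (limma adjusted p = 0.0694). Tent5b, a poly(A) polymerase family member, differed by -1.84, Sfn, the epithelial 14-3-3 sigma protein, by -1.29, and the vitamin D receptor Vdr by -1.02 (limma adjusted p = 0.0578, 0.0694 and 0.123). These 3 were picked after values had been seen, among genes that were lower in all 4 pairs. Vdr was 9.20 and 8.88 in 3-week stem cells, against 10.22 and 10.46.

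Oestrogen and progesterone act on the gland through Esr1 and Pgr, and their genes were already high at 3 weeks. Esr1 was 10.26 and 10.20 in 3-week stem cells, against 10.53 and 9.79 in 9-week ones, and 11.54 and 12.09 in 3-week luminal progenitors, against 10.39 and 10.81. Pgr was 11.79 and 12.15 in 3-week luminal progenitors, against 11.64 and 10.54. Greb1, a target and cofactor of the oestrogen receptor, was lower in all 4 pairs, with 5.72 and 2.89 in 3-week stem cells, against 8.85 and 5.71, and 7.51 and 2.81 in 3-week luminal progenitors, against 9.55 and 4.67. The 2 replicates lay far apart at each age, and the difference of -2.46 ± 0.89 did not pass (limma adjusted p = 0.362). Tnfrsf11a, the receptor for RANK ligand, was 8.51 and 8.90 in 3-week stem cells, against 7.14 and 5.68 (limma adjusted p = 0.288 on the mean). Of the 19 hormone receptor and mediator genes 0 passed in limma (4 at an unadjusted p under 0.05, 2 in each direction), and their median of 0.03 became -0.08 under quantile normalization.

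Among 17 milk protein genes, both 3-week luminal progenitor arrays lay below both 9-week ones for 8 (9.32% of all genes). The median was -1.29 in luminal progenitors, with -0.53 in replicate 1 and -2.35 in replicate 2, and 0.27 in stem cells. In limma 0 passed on the mean (5 at an unadjusted p under 0.05, 3 lower and 2 higher). The 2 higher ones were Glycam1, by 0.96, and Lpo, by 1.71. Csn2, beta-casein, was 3.01 and 4.25 in 3-week luminal progenitors, against 4.56 and 12.09 in 9-week ones. Replicate 2 of the 9-week luminal progenitors also had the highest mean over the 17 genes, 9.62, where the other 7 arrays lay between 6.84 and 7.49. Btn1a1, butyrophilin of the milk fat globule, was lower in all 4 pairs, with 6.26 and 8.11 in 3-week luminal progenitors, against 7.95 and 11.70, and 5.65 and 7.46 in 3-week stem cells, against 7.14 and 8.19. Its difference of -1.88 ± 0.44 had a limma adjusted p of 0.123. Muc15, a mucin of the same membrane, differed by -1.37 and Lcn2, an iron-binding defence protein, by -0.91 (limma adjusted p = 0.133 and 0.149), each lower in all 4 pairs.

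**Figure D4:**
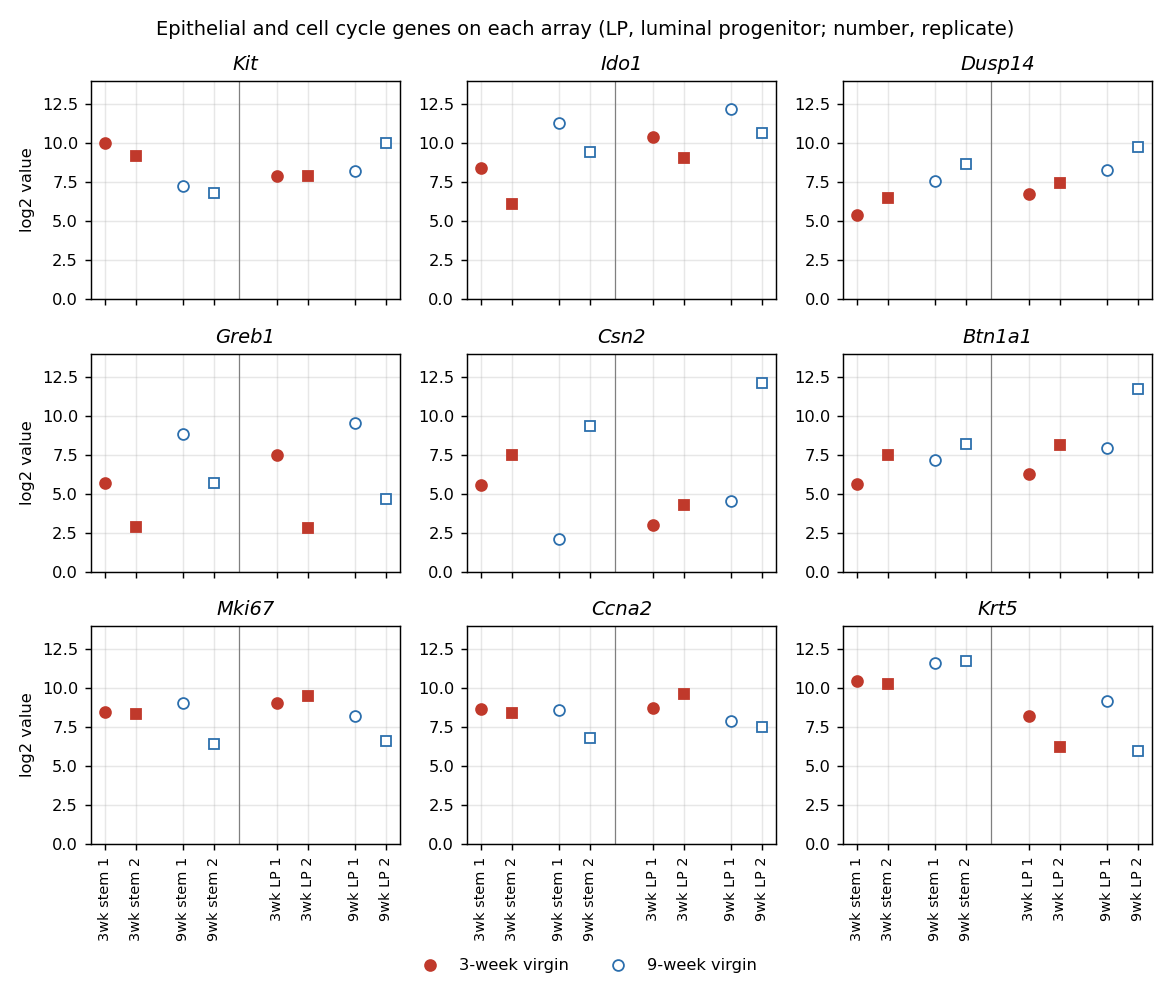
Deposited log2 values (y axis) of 9 epithelial and cell cycle genes on the 8 arrays (x axis), with filled red symbols for 3-week and open blue symbols for 9-week virgins, circles for replicate 1 and squares for replicate 2. Dusp14 and Ido1 lie lower at 3 weeks in both cell types, Kit lies higher at 3 weeks in stem cells and lower in luminal progenitors, and the highest Csn2 value, 12.09, is that of replicate 2 of the 9-week luminal progenitors.

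The 22 basal markers had a median of -0.65 in stem cells and 0.25 in luminal progenitors, with 0 past the test in limma (2 at an unadjusted p under 0.05, both higher). Both 3-week stem cell arrays lay below both 9-week ones for 8 of the 22 (11.7% of all genes). Krt5 was 10.50 and 10.27 in 3-week stem cells, against 11.64 and 11.77, and Krt17 10.58 and 10.22, against 12.12 and 12.51. Krt14 was 12.13 and 12.57, against 12.76 and 13.41. Procr, a receptor of protein C found on a basal subset and on endothelium, was higher in all 4 pairs by 1.48 on average (limma adjusted p = 0.230). Among 13 progenitor markers the medians were 0.16 in stem cells and -0.66 in luminal progenitors, with 0 past the test in limma (1 at an unadjusted p under 0.05, the integrin Itgb3, 1.21 higher).

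Most genes of the cell cycle were higher in 3-week luminal progenitors, where both 3-week arrays exceeded both 9-week ones for 35 of 49. The share of all genes that did so there was not counted. In stem cells this was so for 6 (15.4% of all genes). On the mean of both cell types 47 of the 49 had a difference above 0 (8630 of all 15378 genes). The medians were 1.20 in luminal progenitors and 0.27 in stem cells, the latter with -0.25 in replicate 1 and 0.63 in replicate 2. On the mean 0 of 49 passed in limma (14 at an unadjusted p under 0.05, all higher). Mki67, the usual proliferation marker, was 9.07 and 9.50 in 3-week luminal progenitors, against 8.21 and 6.63 in 9-week ones, and 8.49 and 8.38 in 3-week stem cells, against 9.06 and 6.43. Its stem cell values thus overlapped, with replicate 1 of the 9-week mice above both 3-week arrays. Ccna2, the cyclin of S phase, was 8.72 and 9.61 in 3-week luminal progenitors, against 7.89 and 7.53 (mean difference 1.16 ± 0.38, limma adjusted p = 0.313). Cyclin D1, Ccnd1, was 12.01 and 11.84 in 3-week stem cells, against 10.89 and 8.63 (limma adjusted p = 0.0882 in stem cells).

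Igf2, the fetal insulin-like growth factor, was 9.71 and 9.69 in 3-week stem cells, against 8.63 and 6.82 in 9-week ones, and lay below the array median on all 4 luminal progenitor arrays. Its mean difference was 1.64 ± 0.51 (limma adjusted p = 0.271). Igf1, which carries the growth hormone signal to the ducts, was 7.17 and 6.82 in 3-week stem cells, against 5.09 and 5.35, and 5.10 and 6.14 in 3-week luminal progenitors, against 4.68 and 4.28 (mean difference 1.46 ± 0.41, limma adjusted p = 0.202). The adaptor Grb10, an imprinted gene that restrains insulin signalling, was 1.42 higher in stem cells (limma adjusted p = 0.0700). Of 22 imprinted and early growth genes 0 passed in limma (4 at an unadjusted p under 0.05, all higher), and their median was 0.29.

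Of 29 interstitial matrix genes 17 were higher in all 4 pairs and 0 lower in all 4 (12.0% and 7.38% of all genes). The medians were 0.40 in stem cells and 1.07 in luminal progenitors, and 0 passed in limma (10 at an unadjusted p under 0.05, 9 of them higher). Eln, elastin, was 11.34 and 12.89 in 3-week stem cells, against 9.46 and 11.30, and 8.44 and 9.68 in 3-week luminal progenitors, against 6.36 and 7.69. The difference of 1.89 ± 0.42 had a limma adjusted p of 0.107. Another Eln probe set gave 2.605 in stem cells but -0.475 in luminal progenitors, so its direction there is uncertain. Col15a1, a collagen next to vascular basement membranes, differed by 2.32 (limma adjusted p = 0.0694), Fbln2 by 1.63 and the developmental matrix protein Tnc by 1.82 (limma adjusted p = 0.125 and 0.233). The 14 fibroblast genes had a median of 0.84 alongside, and the log2 values of 5 fibroblast markers summed to between 41.83 and 51.40 in 3-week luminal progenitors, against 39.00 to 40.53 in 9-week ones. Of these 5, only the collagens Col1a1 and Col3a1 were higher on both 3-week arrays there. Dcn, Lum and Pdgfra overlapped between the ages. The part of fibroblasts in the matrix values was not tested.

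**Figure D5:**
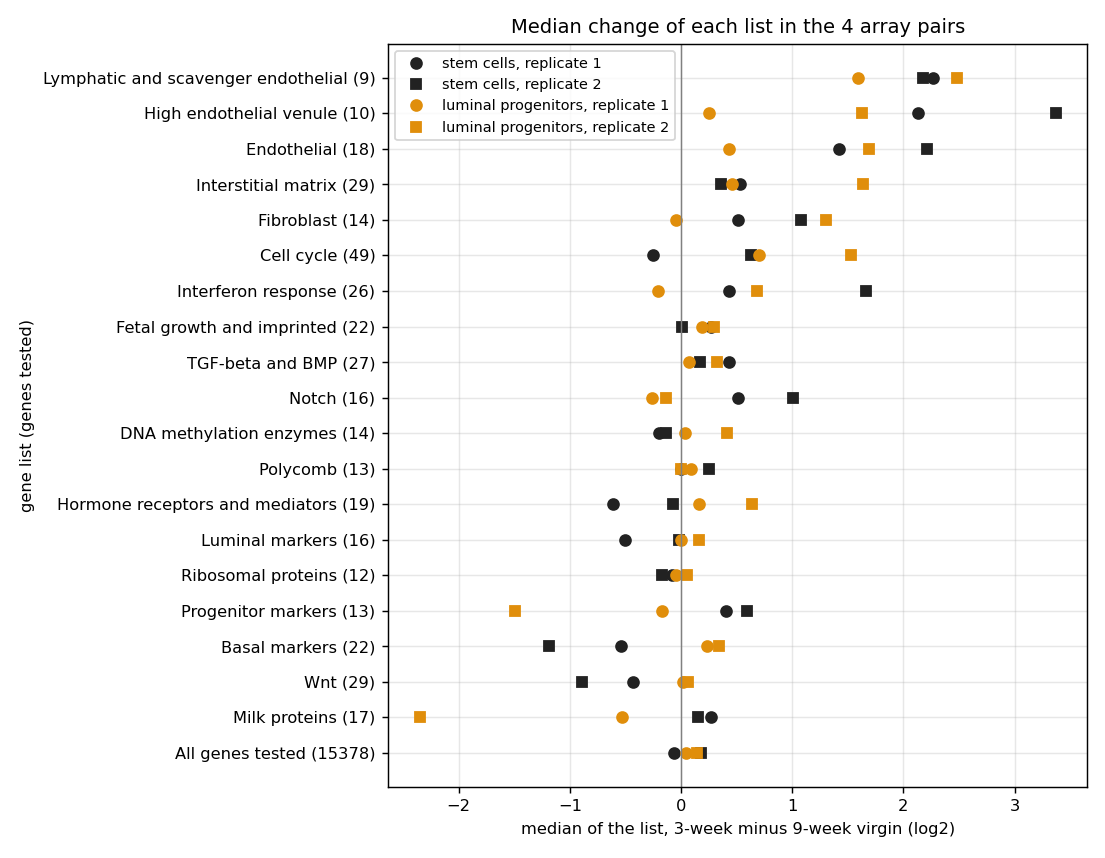
Median change of each of 19 gene lists and of all genes tested (y axis, number of genes in brackets) in each of the 4 array pairs (x axis, 3-week minus 9-week, log2), with black symbols for stem cells, orange symbols for luminal progenitors, circles for replicate 1 and squares for replicate 2. The 3 vascular lists and interstitial matrix lie above 0 in all 4 pairs. So do the TGF-beta and BMP and the fetal growth lists, the latter by as little as 0.005. Basal markers, Wnt genes, hormone receptors and mediators, luminal markers and DNA methylation enzymes lie below 0 in the stem cell pairs only.

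Of 29 Wnt genes 0 passed in limma (5 at an unadjusted p under 0.05, 4 of them lower), and the median was -0.82 in stem cells and 0.07 in luminal progenitors. The luminal progenitor median turned to -0.02 under quantile normalization. The ligand Wnt5b was lower in all 4 pairs (-1.26 ± 0.38, limma adjusted p = 0.248), as was the R-spondin receptor Lgr4 (-1.08 ± 0.39, limma adjusted p = 0.362), for which another probe set gave 0.51. The receptor Fzd4, also found on endothelium, was higher in all 4 (1.26 ± 0.38, limma adjusted p = 0.248). Of 27 genes of the TGF-beta and BMP family 0 passed in limma (9 at an unadjusted p under 0.05, 6 higher and 3 lower), with a median of 0.16. The ligands Bmp2 and Bmp4 stood 2.44 and 2.43 higher in stem cells (limma adjusted p = 0.120 and 0.0884), while the ligand Tgfb2 was lower in all 4 pairs (-1.17 ± 0.35, limma adjusted p = 0.244). The matrix protein Tgfbi, which TGF-beta induces, was 12.06 and 12.61 in 3-week stem cells, against 9.44 and 7.80, with a mean difference of 2.64 ± 0.53 (limma adjusted p = 0.0768).

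Of the enzymes that write, read and erase DNA methylation, 0 of 14 passed in limma (1 at an unadjusted p under 0.05, Uhrf1), and their median was 0.11, or 0.00 under quantile normalization. Dnmt3a was 9.48 and 10.54 in 3-week stem cells, against 9.97 and 10.85 in 9-week ones, and 10.54 and 10.93 in 3-week luminal progenitors, against 9.97 and 9.52. Its other probe sets gave differences from -0.125 to 0.94 in stem cells and from 0.845 to 1.945 in luminal progenitors, so its direction in stem cells is uncertain. Dnmt3b was 9.23 and 9.13 in 3-week stem cells, against 9.96 and 9.37. Uhrf1, which brings the maintenance methyltransferase to replicating DNA and is also a cell cycle gene, was 10.71 and 11.24 in 3-week luminal progenitors, against 9.47 and 9.40, and overlapped between the ages in stem cells.

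The median of 26 interferon response genes was 0.93 in stem cells and 0.24 in luminal progenitors, 10 of the 26 were higher on both 3-week stem cell arrays (15.4% of all genes), and 0 passed in limma (6 at an unadjusted p under 0.05, 5 of them higher). The chemokine Cxcl9 was 12.45 and 11.15 in 3-week stem cells, against 9.82 and 7.66 in 9-week ones, with 3.06 as the stem cell difference (limma adjusted p = 0.0887). Ido1, an interferon target, ran in the opposite direction, as given above. Lymphocyte and class II antigen presentation genes also had medians above 0 in stem cells. The mean over 15 lymphocyte genes was 4.35 and 5.97 on the 3-week stem cell arrays, against 3.65 and 4.16 on the 9-week ones, their median difference was 1.35, and 5 were higher on both 3-week arrays. The 7 class II genes had a stem cell median of 1.5, and 5 were higher on both 3-week arrays. In luminal progenitors the medians were 0.05 and -0.41. Of both lists 0 genes passed in limma (2 at an unadjusted p under 0.05, both lymphocyte genes), and the part of lymphocytes in the interferon values was not tested.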

How the data were processed

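RNA of sorted mammary cells was hybridised to Affymetrix expression arrays, per the labels' protocols. The values are the log2 expression values the authors deposited; the summarisation software and its version are not given in the sources used here, and the log2 scale was read from the values, which run from 0 to 14.28. Of 45101 probe sets, those with 1 gene symbol in GEO's platform annotation named 18193 genes. Each gene was represented by its probe set of highest average value on the 23 arrays, and 15378 genes above the 40th percentile of the array on at least 2 of the 23 arrays were tested.

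Differences were tested with limma 3.58.1 in R 4.3.3 (lmFit and eBayes with an intensity trend) on the 14 arrays of the 7 groups of 2, which are the 4 groups compared and, for the estimate of the spread and of the replicate term only, mature luminal cells of 9-week virgins and, from mice at day 10 of pregnancy, mature luminal and stem cells, with a mean per group and the replicate number as a term, and p-values were adjusted by Benjamini-Hochberg over all genes tested. The replicate numbers come from the titles. Arrays with the same number deviated together in all 21 pairs of groups, with correlations between 0.303 and 0.682 (median 0.470), so the numbers were taken to pair the arrays. No 2 arrays held the same values, at least 98.5% of probe sets differing. The number of arrays limits the precision.

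The fit was tested on simulated data. Named genes are up to 15 per direction on the mean, and up to 8 per cell type, with the largest change among genes past the threshold that moved alike in the pairs and lay above the array median on the higher side, the list members with the smallest p, and a short list of marker genes; others are named as chosen after their values were seen. The comparison and the gene lists were chosen with earlier results of these data known. Alternatives covered the replicate term, the arrays in the fit, quantile normalization, a floor at the array median, the filter, the choice of probe set, the trend and leaving out each array.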

Additional observations from a re-analysis of the deposited data

Results flagged for a closer look

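The 3-week mature luminal array entered no comparison and no fit. On it all 16 genes that rose in the other cell types lay above both 9-week mature luminal arrays. The share of all genes that did so was not counted, so this count has no background beside it and is no replication. Dusp14, which fell in the other cell types, was also higher there, with 7.71 on the 3-week array, against 7.29 and 7.65 on the 9-week ones, a difference of 0.24 opposite in sign to the one reported. For the genes that rose, the difference from the mean of the 2 9-week arrays was 5.43 log2 units for Stab2, 5.30 for Colec12, 4.99 for Meis2, 4.65 for Kcnj15 and 4.5 for Pf4. It was 3.62 for Chst4, 3.47 for Sh3gl3, 3.38 for Pglyrp1, 2.71 for Il27ra, 2.59 for Bst1 and 2.07 for Ces2g. The smallest differences were 1.74 for F8, 1.71 for Ptgds, 1.64 for Susd2, 1.10 for Dcpp3 and 0.84 for Astn1. There is 1 array at 3 weeks, so no test was made. Its Gapdh excess of 3′ over 5′ signal was 5.16, against 1.30 and 1.53 on the 9-week arrays, and the part of RNA quality in these values was not tested.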

How the results depend on the processing

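The number of genes past the limma test on the mean, 17, was 0 without the replicate block (682 at an unadjusted p under 0.05) and 0 with all 23 arrays and no replicate block (682). On the 8 compared arrays alone, without the other 6 arrays of the fit, it was 58 with the replicate block and 124 with the replicate block by pair of cell type and number. It was 4 under quantile normalization, 104 with values raised to the array median, 8 under the stricter filter, 47 with the mean of all probe sets and 3 without the intensity trend. It was 3 within replicate 1 and 1 within replicate 2. Leaving out each array in turn gave between 0 and 19. In stem cells the count of 32 became 0 without the replicate block (831 at an unadjusted p under 0.05) and 0 with all 23 arrays and no replicate block (831). On the 8 arrays alone it was 62 with the replicate block and 135 with the replicate block by pair. It was 199 with raised values, 113 with the mean of probe sets and 16 without the trend. Leaving out each array gave between 0 and 103, the highest without replicate 1 of the 9-week stem cells. In luminal progenitors the count of 0 was between 0 and 2 when each array was left out, and 0 in the other 10 alternatives. For the difference between the cell types, 22 genes passed with raised values, all with the lower change in luminal progenitors, and 0 otherwise. The causes were not tested.

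All 338 alternative values of the 17 genes had the direction reported, and 121 kept the call. All 571 values of the stem cell calls had that direction, and 348 kept the call. Of 1073 values of 54 other results on named genes that did not pass, 56 passed the threshold and 5 changed sign. Csn2 was 0.96 within replicate 1, Krt14 was 0.013 without replicate 1 of the 9-week luminal progenitors and ranged from -0.76 to that value when each array was left out. Pgr was -0.19 without replicate 2 of the 9-week stem cells, -0.28 without replicate 2 of the 9-week luminal progenitors and -0.38 within replicate 1, and ranged from -0.28 to 0.69 when each array was left out. Quantile normalization shifted the median of all genes from 0.06 to -0.04. With 2 arrays a group, precision is low, and values under the array median bound no fold.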
